A study of Mus musculus with 8 samples.

Results

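TcMar DNA transposons are the copies in the mouse genome that descend from Tc1/mariner elements. They were taken from a table of ATAC-seq counts as every region whose repeat name has the class DNA and a family beginning with TcMar. This gave 27378 copies among 4835895 regions, of which 4650627 are repeats and 185268 are open chromatin regions (OCRs, the peaks called by the submitters). ATAC-seq counts the places where a transposase can cut nuclear DNA, so counts in a copy measure how accessible it is. Levels are given in CPM, the usual scaling of counts to a common library total. The libraries came from primary lung fibroblast cultures of 4 cGAS knockout (KO) mice, 2 labelled female and 2 labelled male, and of 4 wild-type (WT) mice, again 2 of each sex label. The labels give 5% CO2 and 5% O2 for the incubators of all cultures. The knockout allele, the strain and the age of the mice are not named in the sources used here. Libraries are named by genotype, sex label and number (KO F1, WT M2).

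Tc1/mariner elements move as DNA. A transposase encoded by the full element cuts the copy out between its terminal inverted repeats and joins it to a TA dinucleotide elsewhere. In mammals nearly all copies are old, broken or internally deleted, and most short ones never encoded a transposase and used the enzyme of a longer relative. The Tigger elements are relatives of the pogo element of Drosophila, and several mammalian genes for DNA-binding proteins descend from transposases of that branch. cGAS is an enzyme that binds DNA outside the nucleus and sets off an interferon response, and the title of the series raises chromatin organization and derepression of repeats in its absence.

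The deposited counts summed to 62.7, 59.0, 72.9 and 43.2 M in KO F1, F2, M1 and M2, and to 54.1, 63.3, 66.4 and 70.5 M in WT F1, F2, M1 and M2. OCRs held between 64.6% (KO M2) and 76.4% (WT M1) of these. The library labelled KO F2 went against its sex label. In 15 OCRs within the first 2 Mb of the Y chromosome it had 17.4 CPM of the table total, against 0.0399, 0.0277 and 0.0237 CPM in KO F1, WT F1 and WT F2 and 23.3 to 28.0 CPM in the libraries labelled male. The sex is kept as labelled in every test, and counts without this library are given beside the genotype comparisons. No annotation of the build GRCm39 was used, so copies are not assigned to genes, and the Cgas locus, marker genes of fibroblasts or other cells and the sequences of the copies are not analysed here.

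Tigger dominated the group. TcMar-Tigger has 24649 copies (90.03% of all), TcMar-Tc2 1464, TcMar-Mariner 959 and TcMar-Tc1 162. TcMar copies with no further family name number 123, TcMar-Pogo has 20 and 1 copy carries a TcMar name marked as uncertain. Copies are short, with a median of 199 bp, an interquartile range of 132 to 283 bp and a longest copy of 2307 bp, and 8.33% are joined from several fragments. MER2, a Tigger-related element without a transposase of its own, accounts for 9860 copies with a median of 213 bp. Next come Tigger5b_Glire with 2590 copies, Tigger5a_Glire with 1080, Tigger17a with 834 and Tigger1 with 701. In Mariner, MARNA has 488 copies, the very short MADE2 214 copies with a median of 74 bp, and MMAR1 213 copies with a median of 378 bp. In Tc2, MER104 has 292 copies and Kanga2_a 288. TcMar-Pogo consists of MER132 alone, and Eulor8 gives 104 of the copies without a family name.

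Counts were concentrated in few copies. The median copy had 1.75 counts per library, 672 copies had no count in any library, and 2105 copies (7.69%) reached a mean of 10. The 274 copies with the highest means, 1% of all, held 21.8% of TcMar counts, and 236 of these 274 overlap an OCR. A count of 0 in a short copy at this depth does not show that the copy is closed. A lower count can also come from fewer cells with an open copy or from less opening in each cell, which bulk libraries cannot tell apart.

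Of the 27378 copies, 1534 (5.60%) overlap or touch an OCR. The share is 6.78% for the 112167 copies of hAT, the other large group of DNA transposons, 8.08% for 101456 copies of MIR, an old tRNA-derived SINE, and 8.38% for 53303 copies of L2, an old LINE. Among the 4623249 repeats other than TcMar it is 4.25%. These shares describe the annotation and the OCRs, with no replicate and no test. The centre of an OCR lies inside 403 TcMar copies (1.47%). The copies in OCRs held 34.9% ± 4.9 of TcMar counts in KO and 37.1% ± 5.4 in WT libraries (SD, 4 per genotype), with a range over all libraries of 29.1% (KO M2) to 42.1% (WT M1). Both extremes lie in the libraries with the lowest and the highest share of counts in OCRs.

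Mariner copies overlap OCRs most often among the families. The share is 8.34% (80 of 959) in Mariner, 5.69% in copies with no family name, 5.67% in Tc2, 5.56% in Tc1, 5.497% in Tigger and 0 of 20 in Pogo. Copies in OCRs held 53.1% of Mariner counts on average over the libraries, 52.3% of counts in copies with no family name, 51.2% of Tc1, 41.3% of Tc2 and 34.6% of Tigger counts. The values for copies with no family name and for Tc1 rest on 7 and 9 copies in OCRs. In Tc1, X33a_DNA, with 3 of 24 copies in OCRs, had a mean of 337 of the 608 counts per library. In Mariner, 1 MMAR1 copy of 757 bp on chromosome 18 had a mean of 519 counts per library, out of 2125 for all MMAR1 copies.

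Among the 50 subfamilies with at least 100 copies that were abundant enough to test (averaging 100 or more counts in a library), the share of copies in OCRs ranged from 2.84% in Tigger6 to 14.04% in X1_DNA, with a median of 6.51%. After X1_DNA (16 of 114 copies) came Tigger19b with 12.5% of 698, Tigger17b with 11.2% of 178 and MARNA with 10.9% of 488. MER2, in spite of its copy number, was near the low end with 3.24%. On the Y chromosome lie 85 of 211 Tigger6 and 1280 of 9860 MER2 copies, and no TcMar copy there overlaps an OCR. This lowers both shares, and the order without Y copies was not computed. MER2 still contained the most OCR centres, 60, or 0.609% of its copies. Tigger5b_Glire contained 41 (1.58%), Tigger17a 38 (4.56%) and Tigger1 25 (3.57%).

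The longest copies were in OCRs most often. The share was 6.83% of 3528 TcMar copies under 100 bp, 4.86% of 10171 copies of 100 to 199 bp, 5.20% of 11760 copies of 200 to 399 bp and 9.80% of 1919 longer copies. MER2 makes up 3850 of the copies of 100 to 199 bp, with 2.13% in OCRs, and 5429 of those of 200 to 399 bp, with 3.72%. The 3850 include 363 copies of 132 bp on the Y chromosome, none of them in an OCR. For TcMar copies other than MER2 the shares over the 4 classes were 6.99%, 6.52%, 6.46% and 9.80%. In hAT the range over the same classes was 6.42% to 7.81%. A longer copy covers more bases and meets an OCR more easily, and this was not corrected for.

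Outside OCRs, TcMar copies as a whole were less accessible than hAT, MIR and L2 copies. Density, the CPM of the table total per kb of copy, was computed over the copies that overlap no OCR. In KO libraries it was 0.217 ± 0.028 and in WT libraries 0.206 ± 0.036 (SD, n = 4 each). The mean over all 8 libraries was 0.211 for TcMar, 0.226 for hAT, 0.298 for L2, 0.326 for MIR and 0.193 for all other repeats. The ratio of TcMar to hAT was 0.953, 0.912, 0.936 and 0.945 in KO F1, F2, M1 and M2, and 0.958, 0.924, 0.920 and 0.933 in WT F1, F2, M1 and M2. Every library lay below 1, at a geometric mean of 0.935. Against MIR the geometric mean was 0.645 (0.609 to 0.685) and against L2 0.708 (0.690 to 0.724), again with all 8 libraries below 1. Against all other repeats the ratio was 1.11 (1.01 to 1.23) and above 1 in 8 of 8 libraries. Each of these 4 ratios had p = 0.0078 in an exact two-sided sign-flip permutation test over the 8 libraries, the smallest p this test can give, and an adjusted p of 0.0084 over 14 ratios. The ratio to hAT depended on which copies were compared. On autosomes alone its log2 value was -0.06, against -0.10 on all chromosomes (adjusted p of 0.0099 and 0.0084, exact sign-flip permutation test). By length, density in TcMar and hAT was 0.243 and 0.270 under 100 bp, 0.206 and 0.258 at 100 to 199 bp, and 0.219 and 0.221 at 200 to 399 bp. Among copies of at least 400 bp TcMar was the higher, with 0.188 ± 0.030 against 0.160 ± 0.026 in hAT (SD, n = 8), a difference that was not tested. The ratio to other repeats also depended on length. Other repeats were at 0.229, 0.305, 0.232 and 0.143 in the same length classes. TcMar was thus the lower at 100 to 199 and 200 to 399 bp and the higher in the shortest and longest class, which was not tested. For none of the 4 repeat groups did the ratio over all lengths differ between genotypes beyond the spread of the libraries (exact permutation p = 0.857 for hAT, 0.971 for MIR, 0.771 for L2 and 0.657 for other repeats).

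**Figure D1:**
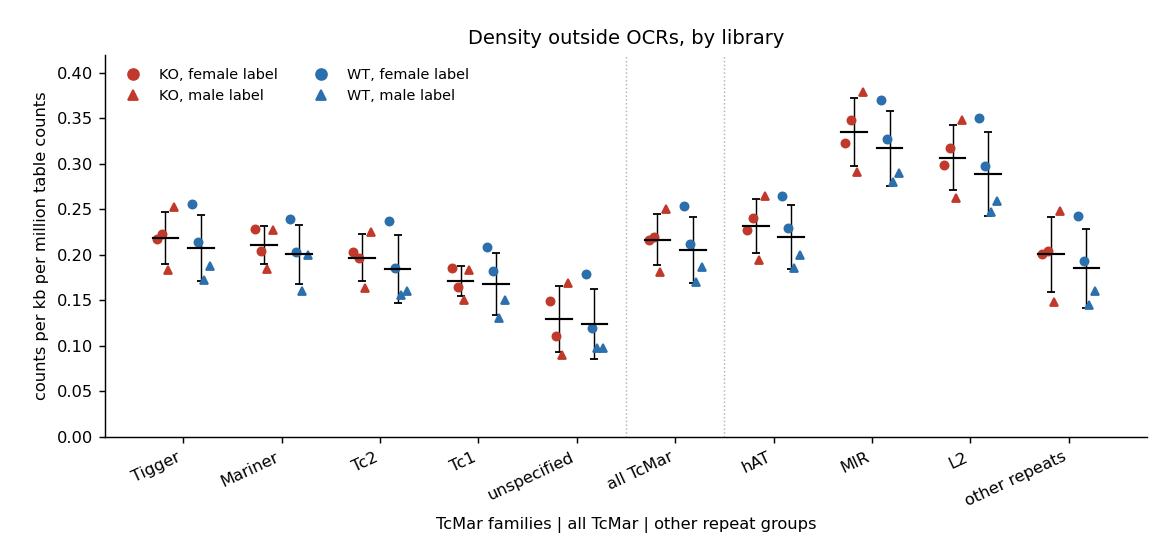
Density (CPM per kb of copy) over copies that overlap no OCR, for 5 TcMar families, all TcMar copies and 4 other repeat groups. Points are libraries (KO left of WT in each pair, circles for the female and triangles for the male label), and black lines are means with SD over 4 libraries. All TcMar lie at 0.217 in KO and 0.206 in WT, under MIR and L2, and the spread between libraries exceeds the distance between genotypes in every column.

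Density was lower the farther a copy lay from an OCR. TcMar copies that overlap an OCR had a density of 1.78 ± 0.13 (SD over 8 libraries), the 3862 copies within 1 kb of an OCR 0.419 ± 0.031, the 11983 copies at 1 to 10 kb 0.231 ± 0.034 and the 9999 copies farther away 0.111 ± 0.028. The share of copies in this farthest class was 36.5% in TcMar, 31.3% in hAT, 25.8% in MIR, 29.4% in L2 and 38.1% in other repeats. In none of the 3 classes outside OCRs was the mean above that of all other repeats. Within 1 kb it was 0.419 in TcMar and 0.434 ± 0.045 in other repeats, with TcMar the higher in KO M1 and WT M2, and this ratio was not tested. At 1 to 10 kb the ratio of TcMar to other repeats was 0.985 (0.911 to 1.05), above 1 in 3 of 8 libraries (exact sign-flip permutation p = 0.406). Beyond 10 kb, an analysis added after the data were seen, it was 0.960 (0.860 to 1.09), above 1 in 2 of 8 libraries (exact sign-flip permutation p = 0.180). The deficit against MIR held in both classes, with ratios of 0.761 at 1 to 10 kb and 0.772 beyond 10 kb, and so did that against L2, with 0.754 and 0.748, below 1 in 8 of 8 libraries in each case. The ratio to hAT was 0.980 at 1 to 10 kb, with 1 library above 1, and 0.932 beyond, with none (adjusted p of 0.0199 and 0.0219, exact sign-flip permutation test over 14 ratios). Distances and densities come from the same reads, since the submitters called the OCRs on these libraries.

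**Figure D2:**
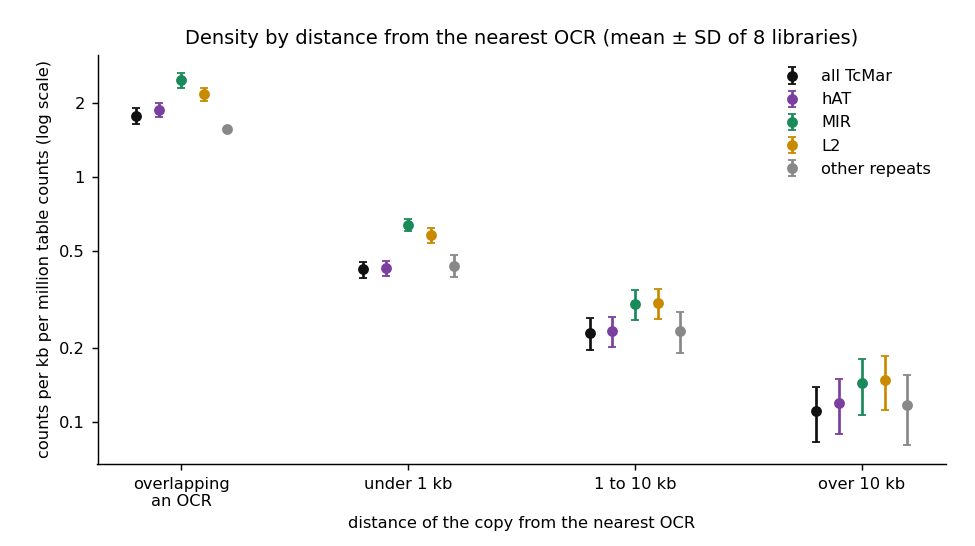
Mean density with SD over 8 libraries, on a log scale, for TcMar, hAT, MIR, L2 and all other repeats in 4 classes of distance from the nearest OCR. TcMar go from 1.78 in OCRs to 0.111 beyond 10 kb, close to hAT and to other repeats in every class outside OCRs and under MIR and L2 in each.

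Among TcMar families, Tigger and Mariner had the highest density outside OCRs and the copies with no family name the lowest. The mean was 0.213 ± 0.031 in Tigger, 0.206 ± 0.026 in Mariner, 0.191 ± 0.030 in Tc2, 0.169 ± 0.025 in Tc1 and 0.127 ± 0.035 in the unnamed copies (SD, n = 8). The order of Tigger and Mariner depended on the copies compared. Over all copies outside OCRs the ratio was 1.03 (0.941 to 1.11), above 1 in 5 of 8 libraries (exact sign-flip permutation p = 0.164). At 1 to 10 kb from an OCR it was 1.07 (0.985 to 1.15), above 1 in 7 of 8 libraries (adjusted p = 0.0273, exact sign-flip permutation test), and on autosomes its log2 value was 0.10 (adjusted p = 0.0391). The other 9 pairs of families differed in the same direction in every library (adjusted p = 0.0084 for each, exact sign-flip permutation test). Tigger exceeded Tc2 by 1.12-fold (1.07 to 1.17), Tc1 by 1.26-fold (1.17 to 1.38) and the unnamed copies by 1.72-fold (1.43 to 2.04). Mariner exceeded Tc2, with Tc2 at 0.924 of Mariner (0.801 to 0.991). Tc1 and the unnamed copies rest on 162 and 123 copies, so their means describe these few loci. When copies in OCRs were included, Mariner stood above Tigger in every library, with Tigger at 0.770 of Mariner (0.694 to 0.846), and Tigger over Tc2 had a ratio of 1.00 (0.961 to 1.05). Beyond 10 kb from an OCR, Mariner was again higher, at 0.133 ± 0.026 against 0.111 ± 0.028 in Tigger, while within 1 kb it was lower, at 0.360 ± 0.028 against 0.423 ± 0.031.

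At the level of subfamilies the mean density outside OCRs ranged from 0.126 in Eulor8 to 0.296 in Tigger16b among the 50 with at least 100 copies, with a median of 0.207. Over all 66 tested subfamilies the highest were UCON55 with 0.379 ± 0.070, X4a_DNA with 0.296 ± 0.052, Tigger16b with 0.296 ± 0.048 and X4b_DNA with 0.294 ± 0.025 (SD, n = 8). UCON55 and X4a_DNA have 48 and 32 copies. The lowest were Eulor8 with 0.126 ± 0.036, X11_DNA with 0.141 ± 0.022, Tigger18a with 0.144 ± 0.031 and MERX with 0.146 ± 0.025. The 2 commonest Tigger names differed, with 0.195 ± 0.032 in MER2 and 0.268 ± 0.034 in Tigger5b_Glire. Within Mariner, MARNA was at 0.252 ± 0.027, MMAR1 at 0.170 ± 0.029 and MADE2 at 0.161 ± 0.024. Within Tc2, Kanga1c was at 0.221 ± 0.029, Kanga2_a at 0.186 ± 0.031, MER104 at 0.173 ± 0.035 and Kanga1 at 0.160 ± 0.034. Across the 50 larger subfamilies, the Spearman correlation of density outside OCRs was 0.27 with the share of copies in OCRs and -0.30 with the median length. These subfamilies share the same libraries and are not independent.

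**Figure D3:**
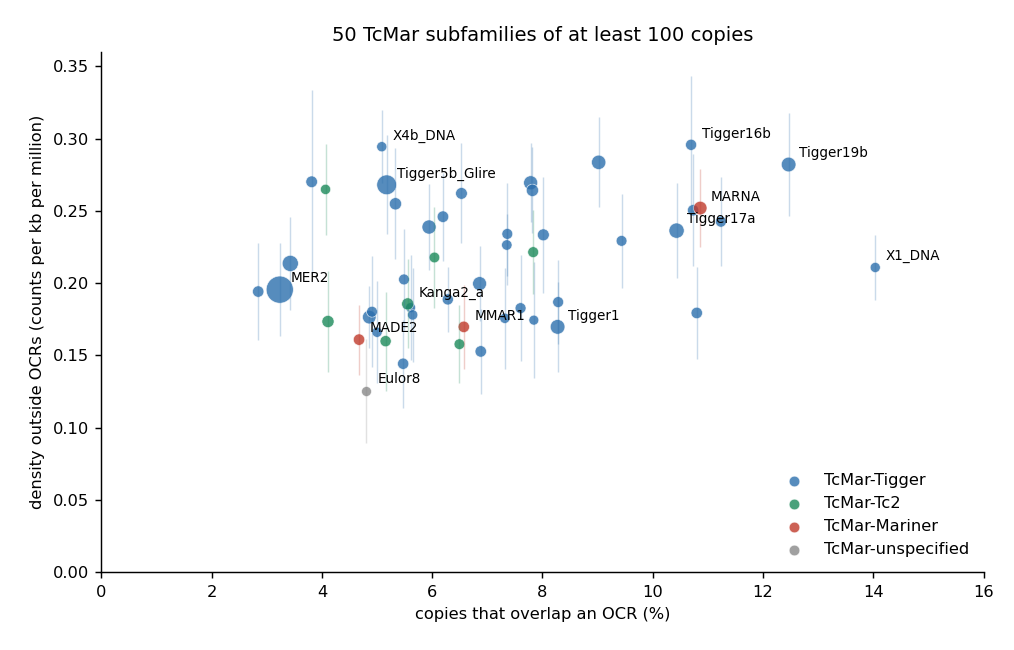
The 50 TcMar subfamilies with at least 100 copies that were tested, by the percent of copies that overlap an OCR and the density outside OCRs (mean with SD over 8 libraries). Larger points have more copies, and colours are families. MER2, the largest point, lies at 3.24% and 0.195, X1_DNA farthest right at 14.04%, Tigger16b highest at 0.296 and Eulor8 lowest at 0.126.

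The Y chromosome holds an unusual set of TcMar copies. It carries 1373 of them (5.01%), or 10.1 per 1000 repeats, against 7.32 on chromosome 13 and 5.58 on the X chromosome. MER2 makes up 1280 of the 1373, which is 12.98% of all MER2 copies, and Tigger6 makes up 85, of 211 Tigger6 copies in the genome. Of the MER2 copies on Y, 363 have the same length of 132 bp, a length found in 28 of the 8580 MER2 copies elsewhere. None of the 1373 copies overlaps an OCR. Together they had 290.5, 365.5 and 464 counts in the library labelled KO F2, in KO M1 and in KO M2, and 217 and 487 counts in WT M1 and WT M2. KO F1, WT F1 and WT F2 had 0 counts, which allows up to 0.0478, 0.0554 and 0.0474 CPM (3 counts of the table total, for counting error only), against 3.27 to 10.7 CPM in the libraries with counts. The 4.92 CPM of the library labelled KO F2 lies inside the range of the male-labelled libraries. In the libraries with counts, MER2 density on Y was 0.103 (KO F2), 0.138 (KO M1) and 0.193 (KO M2) of that of autosomal MER2 outside OCRs, and 0.0961 (WT M1) and 0.191 (WT M2). The sources used here do not give the placement of reads with several equal matches, and copies of 1 length may be near-identical, so Y counts of single copies are uncertain.

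On the X chromosome, 33 of 1496 TcMar copies (2.21%) overlap an OCR, against 6.13% of autosomal copies. The share was lower on X in other repeats too, at 3.24% against 7.05% in hAT and 1.83% against 4.54% in all repeats other than TcMar. The density of X copies outside OCRs relative to autosomal copies was 0.596 in KO F1, 0.440 in the library labelled KO F2, 0.410 in KO M1 and 0.394 in KO M2, and 0.588, 0.556, 0.367 and 0.385 in WT F1, F2, M1 and M2. Libraries labelled female other than KO F2 lay at 0.556 to 0.596 and male-labelled libraries at 0.367 to 0.410, with KO F2 between the ranges and nearer to the male-labelled ones. Male mouse cells carry a single X chromosome. For repeats other than TcMar, KO F2 was at 0.480, inside the 0.374 to 0.495 of the male-labelled libraries and below the 0.594 to 0.719 of the other female-labelled ones.

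**Figure D4:**
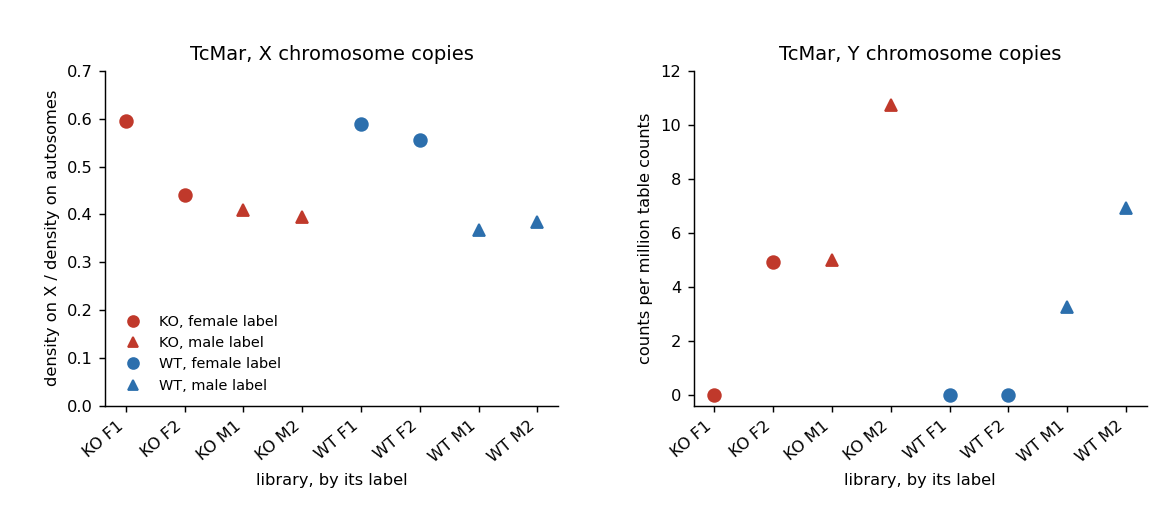
Left, density of X chromosome TcMar copies divided by that of autosomal copies, both outside OCRs, in each library; right, counts of the 1373 Y chromosome TcMar copies in CPM of the table total. The library labelled KO F2 has 4.92 CPM on Y, where KO F1, WT F1 and WT F2 have 0, and its X ratio of 0.440 lies between the 2 ranges.

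Between genotypes, TcMar as a whole took nearly equal shares of the counts. The share of the table was 0.192%, 0.193%, 0.177% and 0.203% in KO F1, F2, M1 and M2, and 0.210%, 0.189%, 0.170% and 0.181% in WT F1, F2, M1 and M2. The groups overlapped, with means of 0.191% ± 0.011 in KO and 0.188% ± 0.017 in WT libraries (SD, 4 per genotype; fold 1.02, exact two-sided permutation p = 0.714, smallest possible p 0.0286). The lowest libraries, WT M1 and KO M1, are those with the largest share of counts in OCRs. As a percent of repeat counts alone the direction turned, to 0.645% ± 0.065 in KO libraries and 0.671% ± 0.055 in WT libraries (exact permutation p = 0.571). Without the library labelled KO F2 the difference in the share of the table was 0.0034 percentage points (exact permutation p = 0.771).

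No family was called different in its share. Tigger took 0.171% ± 0.010 in KO and 0.167% ± 0.016 in WT of all table counts, Tc2 0.0103% ± 0.0006 in KO and 0.0102% ± 0.0009 in WT, and Mariner 0.00909% ± 0.00026 in KO and 0.00904% ± 0.00054 in WT libraries (SD, 4 per genotype). Folds of KO over WT were 1.02 for Tigger, 1.00 for Tc2, 1.00 for Mariner, 0.964 for Tc1, 0.985 for the unnamed copies and 0.788 for the 20 Pogo copies. The adjusted p was 0.914 for each of the 6 families by the exact permutation test, and in none did the 4 KO libraries separate from the 4 WT libraries.

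Counts summed over subfamilies gave the most precise comparison. Of 79 combinations of family and subfamily, 66 averaged 100 or more counts in a library and were tested among 2069 repeat subfamilies. edgeR's quasi-likelihood test called 0 of the 66 at an adjusted p of 0.05 (background 0% of 2069 called), with 0 at an unadjusted p under 0.05 (background 1.01%). DESeq2 called 0, with 0 at an unadjusted p under 0.05 (background 1.30%), and limma voom with sample weights called 0, with 3 (4.55%, background 2.85%). The median SE of a log2 fold change was 0.10. The median log2 fold change of KO over WT was -0.03, with 25 of 66 above 0, and 0.03 over all 2069 subfamilies, with 60.8% above 0. Scaling on OCRs alone gave a TcMar median of 0.05 with 46 of 66 above 0, against 0.10 with 1737 of 2069 over all subfamilies. Scaling on repeats alone gave -0.05 with 18 of 66 above 0, against -0.006 with 978 of 2069. The TcMar median was below that of all subfamilies under each of these scalings. A change of scaling shifts all subfamilies nearly alike, so this agreement is no separate support. The balance of directions depends on the scaling. It also depends on single libraries. Without the library labelled KO F2 the median was 0.01 with 38 of 66 above 0 (background 65.3% of all subfamilies), without WT F1 0.02 with 36 (66.5%), and without WT M2 0.02 with 40 (67.9%). Leaving out KO M2 put the TcMar median above that of all subfamilies, at -0.037 (21 of 66 above 0) against -0.045 (595 of 2069). Without KO F2 2 of the 66 had an unadjusted p under 0.05 (background 0.822%) and without WT F1 2 (background 2.08%), with 0 called.

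Among subfamilies higher in KO the lowest p belonged to X4a_DNA, X6a_DNA, UCON11 and MMAR1, and among those lower in KO to UCON55, MADE2, Tigger12A and Tigger12, and none passed the threshold (edgeR adjusted p of at least 0.999). Values here and below are CPM of the TMM-scaled table total for subfamilies and copies. For single OCRs they are CPM of the TMM-scaled total of counts in OCRs, so copy and OCR values are not on the same scale. X4a_DNA had 2.24, 1.57, 2.16 and 1.99 CPM in KO F1, F2, M1 and M2, and 1.82, 1.32, 1.70 and 1.67 CPM in WT F1, F2, M1 and M2 (fold 1.23, SE 0.15 on the log2 scale). UCON55 had 2.98, 3.52, 3.29 and 3.10 CPM in the KO libraries and 3.23, 3.75, 3.84 and 4.83 CPM in the WT libraries, listed in that order here and below (fold 0.83, SE 0.13). In both the groups overlap. MADE2, a miniature Mariner element, had 4.19, 3.64, 4.04 and 3.65 CPM in KO and 4.40, 4.53, 4.37 and 4.23 CPM in WT (fold 0.884, SE 0.09). All 4 KO libraries lay below all 4 WT libraries there. Of the others, X6a_DNA was at 10.2 ± 0.8 CPM in KO and 9.18 ± 0.70 in WT (fold 1.11), UCON11 at 2.32 ± 0.35 in KO and 2.07 ± 0.17 in WT (1.12), Tigger12A at 6.63 ± 0.41 in KO and 7.61 ± 0.86 in WT (0.874) and Tigger12 at 5.94 ± 0.68 in KO and 6.89 ± 0.70 in WT (0.863), with groups that overlap. The separation seen in MADE2 also held for Tigger17a, at 130.8 ± 1.0 CPM in KO and 137.2 ± 3.1 CPM in WT (fold 0.953, SE 0.06). These 2 of 66 (background 1.30% of 2069) were the only TcMar subfamilies whose groups did not overlap.

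The most abundant subfamilies had small differences. MER2 was at 509.5 ± 43.3 CPM in KO and 491.6 ± 47.5 in WT (fold 1.04), and Tigger5b_Glire at 211.0 ± 5.7 CPM in KO and 222.6 ± 10.2 in WT (0.948). Tigger1 was at 90.5 ± 4.1 CPM in KO and 91.9 ± 7.2 in WT (0.985), and Tigger19b at 53.4 ± 5.2 in KO and 55.4 ± 3.0 in WT (0.966). MARNA was at 47.4 ± 4.2 CPM in KO and 51.0 ± 3.9 in WT (0.931), MMAR1 at 35.7 ± 1.5 in KO and 33.7 ± 1.7 in WT (1.06), and UCON40 at 2.61 ± 0.51 in KO and 2.69 ± 0.09 in WT (0.968). In Tc2, Kanga2_a was at 26.9 ± 1.4 CPM in KO and 26.4 ± 1.3 in WT (1.02), Kanga1c at 13.9 ± 2.5 in KO and 15.4 ± 2.1 in WT (0.907) MER104 at 10.2 ± 1.0 in KO and 11.1 ± 1.1 in WT (0.914), Kanga1a at 11.8 ± 0.6 in KO and 11.5 ± 1.6 in WT (1.03) and Kanga1 at 11.4 ± 0.7 in KO and 11.8 ± 1.3 in WT (0.970). In Tc1, X33a_DNA was at 5.13 ± 1.14 CPM in KO and 5.73 ± 0.60 in WT (0.899), and X32_DNA at 2.11 ± 0.45 in KO and 2.23 ± 0.51 in WT (0.946). Eulor8 was at 4.27 ± 0.82 CPM in KO and 4.37 ± 0.63 in WT (0.977). None of these passed the test (edgeR adjusted p of at least 0.999, SD, n = 4 each).

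**Figure D5:**
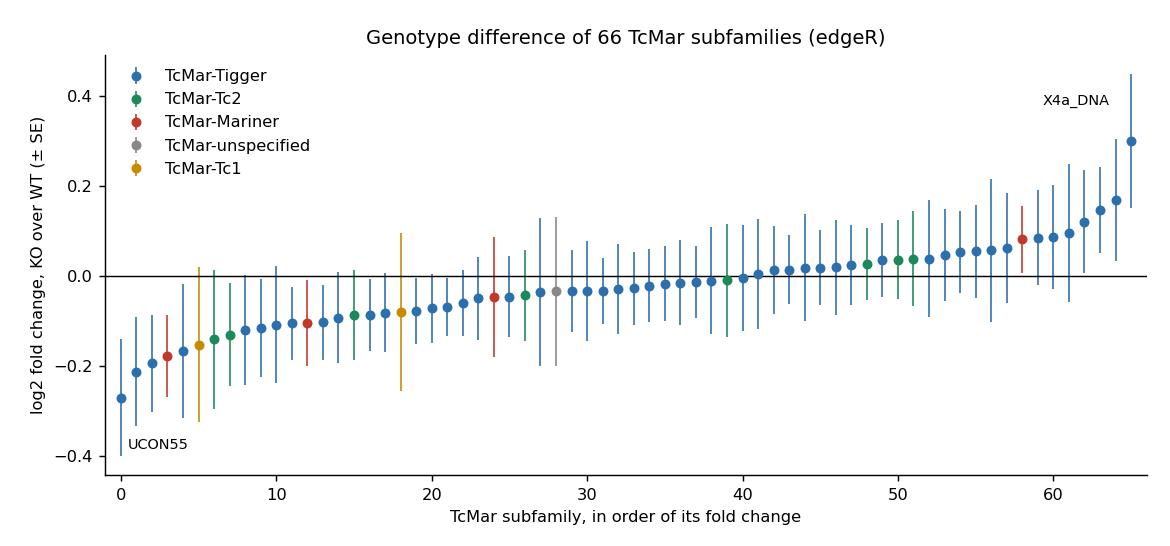
Log2 fold change of KO over WT with SE for 66 TcMar subfamilies, in order of size and coloured by family. They run from -0.27 (UCON55) to 0.30 (X4a_DNA), none passes the threshold, and the families are spread along the whole order.

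Whether KO and WT differed to an unequal degree under the 2 sex labels was tested as an interaction. It was called in 0 of 66 TcMar subfamilies by edgeR, with 0 at an unadjusted p under 0.05 (background 0% called and 0.242% at an unadjusted p under 0.05), and in 0 by DESeq2, with 0. Without KO M1, 6 had an unadjusted p under 0.05 (9.09%, against 20.8% of all subfamilies) and 0 were called. The library labelled KO F2 enters this test under its female label, and without it 0 had an unadjusted p under 0.05.

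Single copies were tested where counts allowed. Of the 27378 copies 2722 passed the filter on low counts, 1071 of them in OCRs, so copies in OCRs are far more frequent among those tested than among all. edgeR called 0 of the 2722 (background 0% of 478926 repeat copies), with 135 at an unadjusted p under 0.05 (4.96%, background 3.42%). Of these 82 were higher (background 2.31%) and 53 lower in KO (background 1.11%). DESeq2 called 0 of the 372 copies to which it gave an adjusted p (background 0.0791% of 51803). It had 120 of the 2722 at an unadjusted p under 0.05 (4.41%, background 2.66%). Without the library labelled KO F2 edgeR had 169 at an unadjusted p under 0.05 (6.21%, background 4.04%), with 0 called. The median log2 fold change was -0.03 among tested TcMar copies, with 1301 of 2722 above 0, and 0.04 over all tested copies, with 54.5% above 0, at a median SE of 0.42 for TcMar. At that error a 2-fold difference in a typical single copy is unlikely to pass the adjusted threshold over 478926 copies. Leaving out KO M2 gave a median log2 fold change of -0.0025 in TcMar copies and -0.0604 over all tested copies.

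Of the 8 copies with the lowest p, 4 in each direction, all had 4 KO libraries on one side of the 4 WT libraries, as such a choice favours. The groups did not overlap in 107 of the 2722 copies (3.93%, background 2.53%). A Tigger9a copy of 181 bp at chr7:97977694-97977874, wholly inside an OCR, had 0.480, 0.635, 0.424 and 0.643 CPM in KO and 0.226, 0.237, 0.122 and 0.125 CPM in WT libraries (fold 3.12). A MER2 copy of 139 bp at chr1:184176575-184176713, 1232 bp from the nearest OCR, had 0.368, 0.804, 0.353 and 0.931 CPM in KO and 0.163, 0.168, 0.195 and 0.0736 CPM in WT (fold 4.04). Of those lower in KO, a MamRep434 copy at chr1:192504646-192504887 had 0.368, 0.362, 0.388 and 0.321 CPM in KO and 0.498, 0.758, 1.28 and 0.934 CPM in WT (fold 0.425). A MARNA copy at chr11:105385966-105386265 had 0.801, 0.837, 0.791 and 0.587 CPM in KO and 1.12, 1.52, 1.67 and 1.26 CPM in WT (fold 0.539). The other 4 were a Tigger6 copy at chr10:96376886-96377008 with 0.263 ± 0.072 CPM in KO and 0.0717 ± 0.0178 in WT (fold 3.55), a MER2 copy at chr6:92883855-92884177 with 0.620 ± 0.098 in KO and 0.261 ± 0.049 in WT (2.40), a MER46C copy at chr15:38474780-38474970 with 0.521 ± 0.167 in KO and 1.06 ± 0.18 in WT (0.492) and a Tigger14a copy at chr10:41988787-41988975 with 0.196 ± 0.049 in KO and 0.455 ± 0.145 in WT (0.438). The adjusted p was 1 for each in edgeR, and these copies have mean counts of 9.94 to 66.8 per library. A read in a copy within an OCR is divided between the copy and the OCR, so the 2 are not separate measurements.

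The copies with the highest counts all lie in OCRs and showed no called difference. The MMAR1 copy on chromosome 18 had 7.99, 8.44, 8.90 and 7.59 CPM in KO and 7.07, 8.45, 9.98 and 8.87 CPM in WT (fold 0.962). A Tigger17a copy of 571 bp at chr6:37375964-37376534 had 5.41, 6.05, 7.36 and 5.43 CPM in KO and 5.10, 6.99, 8.85 and 7.77 CPM in WT (fold 0.854). The other 4 were a MamRep137 copy at chr2:155090273-155090462, a further Tigger17a copy at chr13:103676115-103676702, a Tigger5b_Glire copy at chr17:12583042-12583321 and a Tigger20a copy at chr10:82919854-82920250, with mean CPM of 4.14 to 4.86 and folds of 0.792 to 0.868. In all 6 the KO and WT libraries overlap, and the highest library was WT M1, which has the largest share of counts in OCRs. Whether that share has a part in these values was not tested. Outside OCRs the highest was a Tigger13a copy at chr5:134344656-134345029, 477 bp from the nearest OCR, with 1.40 ± 0.20 CPM in KO and 1.64 ± 0.43 in WT libraries (SD, 4 per genotype). Next were a Tigger5b_Glire copy at chr5:74936825-74937136 with 1.38 ± 0.20 CPM in KO and 1.41 ± 0.32 in WT, a MARNA copy at chr16:65618909-65619116 with 1.499 ± 0.486 in KO and 1.24 ± 0.39 in WT, and a Tigger15a copy at chr14:47124904-47125291 with 1.30 ± 0.24 in KO and 1.35 ± 0.07 in WT. In all 4 the groups overlap.

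OCRs that contain TcMar sequence were the last comparison. There are 1502, or 0.811% of all OCRs, of which 406 have their centre in a TcMar copy and 619 contain TcMar as their only repeat. Their median width is 603 bp, against 519 bp over all OCRs, 561 bp over OCRs with other repeats only and 457 bp over OCRs with no repeat. It is 488 bp where TcMar is the only repeat. The median level of the 1502, in CPM of the counts in OCRs, was 2.40 ± 0.07 in KO and 2.38 ± 0.13 in WT libraries, against 2.33 ± 0.04 in KO and 2.26 ± 0.17 in WT over all OCRs (SD, n = 4 each). Over OCRs with other repeats only it was 2.41 ± 0.04 in KO and 2.33 ± 0.17 in WT. With TcMar as the only repeat it was 1.94 ± 0.09 in KO and 1.88 ± 0.10 in WT. Where the centre lies in a TcMar copy the median was lower, 1.53 ± 0.08 in KO and 1.51 ± 0.14 in WT. A read end in both a copy and an OCR was divided between them, which takes counts from such OCRs. How much of the lower median this accounts for was not tested. The middle of the overlapping fragment lay a median of 202 bp from the OCR centre, and 393 of 1598 fragments (24.6%) lay within 100 bp of it.

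edgeR called 0 of these 1502 OCRs between genotypes (background 0% of 185267), with 167 at an unadjusted p under 0.05 (11.1%, background 9.88%). Of these 101 were higher (background 6.43%) and 66 lower in KO (background 3.45%). DESeq2 called 24 of 1468 (1.63%, background 1.46%), 19 higher and 5 lower in KO, and had 189 at an unadjusted p under 0.05 (12.6%, background 10.9%). The share is near the background under both tools. The groups did not overlap in 108 (7.19%, background 5.98%). The median log2 fold change was -0.03 with 701 of 1502 above 0, against 0.00024 over all OCRs with 50% above 0. Without KO M2, the library with the lowest total, 87 had an unadjusted p under 0.05 in edgeR (5.79%, background 5.20%), without WT M1 106 (7.06%, background 6.46%) and without the library labelled KO F2 224 (14.9%, background 12.1%), with 0 called in each.

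The OCRs with the lowest p higher in KO contained Tigger6, Tigger9a, MER2 and Tigger5b_Glire copies, and all 8 named here had an edgeR adjusted p of 0.323. The OCR at chr10:96376725-96377067, centred in a Tigger6 copy of 123 bp, had 1.25, 1.05, 0.783 and 1.63 CPM in KO and 0.397, 0.267, 0.385 and 0.394 CPM in WT (fold 3.32, DESeq2 adjusted p = 0.012). The OCR at chr7:97977545-97977971, centred in the Tigger9a copy above, had 1.64, 2.51, 1.48 and 2.44 CPM in KO and 0.973, 1.06, 0.658 and 0.452 CPM in WT (fold 2.64, DESeq2 adjusted p = 0.016). The OCR at chr17:87465793-87466644, centred in a MER2 copy, had 3.34, 1.94, 5.41 and 3.82 CPM in KO and 1.81, 1.08, 0.628 and 0.837 CPM in WT (fold 3.38, DESeq2 adjusted p = 0.0098). In these 3 every KO library lay above every WT library. The OCR at chr1:36301005-36301630 overlaps a Tigger5b_Glire copy away from its centre and had 3.25 ± 1.14 CPM in KO and 1.38 ± 0.35 in WT libraries (SD, 4 per genotype, fold 2.39). Its groups did not overlap either, with the lowest KO library at 1.84 CPM (KO M1) and the highest WT library at 1.74 CPM (WT F2).

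Among the OCRs with the lowest p lower in KO, the strongest signal was at chr9:102527129-102528329, an OCR of 1201 bp centred in a Kanga2_a copy. It had 29.9, 31.6, 31.1 and 28.5 CPM in KO and 34.0, 46.3, 47.7 and 46.4 CPM in WT (fold 0.696, DESeq2 adjusted p = 0.035), with WT F1 the WT library nearest to KO. The OCR at chr8:84386890-84388181, which overlaps MER2, had 11.04, 9.76, 11.2 and 10.2 CPM in KO and 14.1, 13.3, 15.6 and 15.3 CPM in WT (fold 0.724, DESeq2 adjusted p = 0.028). An OCR at chr15:80285458-80286113 overlaps MamRep137, its only repeat, with 2.37 ± 0.71 CPM in KO and 4.49 ± 1.07 in WT (fold 0.533), and its groups overlap. An OCR at chr6:31623438-31624226 overlaps X26_DNA, with 1.17 ± 0.46 CPM in KO and 2.37 ± 0.57 in WT libraries (SD, 4 per genotype; fold 0.482). These 8 were picked by the lowest p among 1502, which favours separated groups and large folds, and 7 of the 8 also overlap a repeat that is not TcMar.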

How the data were processed

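The tools in the submitters' processing notes are bedtools, Bowtie2, featureCounts, MACS2, Picard, SAMtools and Trim Galore, with the build GRCm39. Estimated counts were deposited, made by featureCounts 2.0.3 (per the file headers) over OCRs and repeats in a single run, from the 5' ends of reads with both mates aligned. A read end in several regions was divided equally among them. Whether positions were shifted for the transposase, how reads with several equal matches were placed and how OCRs were merged were not given in the sources used here. The members, subfamilies and lists were chosen with earlier results of these data known.

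Estimated counts were rounded for count models. edgeR 4.0.16 (R 4.3.3, robust quasi-likelihood fit) was the main test, with the sex label as covariate and Benjamini-Hochberg adjustment over all regions tested, at 0.05. Subfamilies and copies used the table total as library size with TMM over OCRs and repeats, and OCRs used TMM over OCRs. Subfamilies needed a mean of 100 counts, and copies and OCRs passed filterByExpr. The SE of a log2 fold change is its size divided by the square root of the test's F. DESeq2 1.42.0 and limma 3.58.1 were alternatives. Shares were compared by exact permutation over 70 assignments, and density ratios by exact sign flips. A copy that overlaps or abuts an OCR counts as in it, and length is the sum of its fragments. Each library is a separate mouse, per the series' design text. No column of another sample was present. The tests were checked on simulated data.

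Named are all families, in each family the 5 tested subfamilies with most counts, in each direction the 4 subfamilies, 4 copies and 4 OCRs of lowest p, the 4 subfamilies at each end of density and with the largest OCR share among those with at least 100 copies, the 6 copies with the highest mean CPM and the 4 highest outside OCRs. Alternatives were other scalings, filters, tools and denominators, a fit without the sex label, a replicate block, only autosomes, only copies that overlap no OCR, and each library left out in turn.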

Additional observations from a re-analysis of the deposited data

Results flagged for a closer look

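In 94 groups of 4 libraries, 4 had a library far from the other 3 of its genotype by Dixon's criterion. Chance flags about 1 in 20 groups. The share of the table in TcMar-Mariner was 0.00947% in KO F1, against 0.00892% to 0.00901% in the other KO libraries. The Tigger14a copy at chr10:41988787-41988975 had 0.268 CPM in KO M1, against 0.161 to 0.177 CPM in the other KO libraries. The OCR at chr10:96376725-96377067 had 0.267 CPM in WT F2, against 0.385 to 0.397 CPM in the other WT libraries. The OCR at chr9:102527129-102528329 had 34.0 CPM in WT F1, against 46.3 to 47.7 CPM in the other WT libraries. Their causes were not tested.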

How the results depend on the processing

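The counts of TcMar subfamilies, copies and OCRs called by edgeR between genotypes were 0 under the filters, scalings and covariate choices tried, with the replicate block and without each library in turn (lowest and highest 0). The interaction was tried only with DESeq2 and without each library, and was called in 0. DESeq2 called 24 OCRs. The replicate numbers are not known to mark shared litters or days. The deviations of same-numbered libraries had r = 0.750 for the female and -0.494 for the male label over OCRs, and 0.604 and 0.251 over subfamilies, and the block called 0 TcMar regions at each level. The difference in the share of the table (KO minus WT, percentage points) for all TcMar, 0.0038, ranged from -0.00206 (without WT M1) to 0.0113 over libraries left out. It was -0.0259 as a percent of repeat counts and -0.0126 outside OCRs. With the same 2 changes Mariner became -0.00175 and -0.000408, Tc2 -0.00194 and -0.000215, and Tigger -0.0217 and -0.0118. Over libraries left out, Mariner ranged from -0.000185 to 0.000213, Tc2 from -0.000223 to 0.000478, Tigger from -0.00158 to 0.0107 and unnamed copies from -4.54e-05 to 3.65e-05. None passed the threshold. On the log2 scale, the density ratio of TcMar to other repeats turned to -0.0215 at 1 to 10 kb and, added after seeing the data, to -0.0583 beyond 10 kb. With all copies, Tigger over Mariner became -0.38, Tigger over Tc1 -0.11 and Tc2 over Tc1 -0.11. Beyond 10 kb, Tigger over Mariner became -0.28 and Tc1 over unnamed copies -0.0411. On autosomes alone the log2 ratio to hAT was -0.0564, against -0.0970 on all chromosomes. Without each library, it ranged from -0.102 to -0.092 for hAT, -0.644 to -0.620 for MIR, -0.502 to -0.492 for L2 and 0.124 to 0.165 for other repeats. Causes were not tested. Single copies are limited by depth, with a median of 14.2 counts among those tested.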
